A study of Mus musculus with 6 samples.

Results

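Transcripts of 6 epithelial genes were followed in libraries of mouse embryonic stem cells: the keratins Krt8, Krt18 and Krt19, the claudin Cldn6, the cadherin Cdh1 and the adhesion molecule Epcam. They were taken by symbol from the deposited table, which held all 6 among 12331 gene rows. The choice was made by name, with earlier results of these data known. The table gave RPKM, which scales reads to the length of the gene model and to the alignments of the library. All libraries came from the same mouse stem cell line, E14tg2a, grown in medium with serum and LIF, the cytokine that keeps these cells undifferentiated. There was no untreated or wild-type control. Each cDNA was made with a tagged oligo(dT) primer from 10 pg of purified total RNA, roughly what 1 cell holds, and went through 20 PCR cycles. One field of the labels speaks of a lysate of single cells, while the protocol describes purified RNA.

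In 3 libraries the cDNA (100 ng) was cut and tagged by hyperactive Tn5 transposase at 55 °C for 5 min (tagmentation) and amplified with 13 further PCR cycles. In the other 3 the cDNA was sheared by sonication and adaptors were ligated to it. The libraries of each method are technical replicates that carry the numbers 1 to 3, so the tests see technical spread and nothing of the spread between cultures. Libraries had 21007424 to 34681566 alignments after tagmentation and 18852822 to 30296557 after sonication. Between the methods, libraries of the same number resembled each other far more than libraries of different numbers, so each result is also given with the numbers as pairs. All 14 stem cell markers examined were in the table and passed the filter on low values, with Dppa5a, Utf1 and Zfp42 the highest at means of 1047, 468 and 281 RPKM. The core factor Pou5f1 (Oct4) was among them, with 127, 260 and 111 RPKM in tagmentation libraries 1 to 3 and 182, 251 and 91.5 RPKM in sonication libraries 1 to 3. Nanog, another of them, was listed at 0 in number 3 with both methods. None of the 14 was called for the method in the 2 fits described below, without and with the number as a block (0% and 3.29% of all tested genes called). Between numbers 12 differed, as did 88.1% of all tested genes. Their median method difference was 0.21 in log2(RPKM + 1), against 0.028 over all tested genes.

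Keratins are the intermediate filament proteins of epithelia. They assemble only as heterodimers of a type II and a type I chain, and in simple epithelia the usual partners are Krt8 (type II) and Krt18 or Krt19 (type I). Cdh1 (E-cadherin) holds neighbouring cells together at adherens junctions, where its tail binds catenins, and it gives embryonic stem cell colonies their compact shape. Cldn6 is a tight junction claudin of early embryonic epithelia and pluripotent cells. Epcam is a calcium-independent adhesion molecule found on epithelia and on embryonic stem cells.

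Krt8 and Krt18 lie next to each other on chromosome 15 and are transcribed away from each other. In RefSeq on the build GRCm38.p6, Krt8 (gene ID 16691) spans chr15:101996711-102004342 on the minus strand and Krt18 (16668) spans chr15:102028216-102032026 on the plus strand, with 23873 bases between them. Krt19 (16669) lies at chr11:100140810-100145926, Cldn6 (54419) at chr17:23679348-23682446, Epcam (17075) at chr17:87635979-87651127 and Cdh1 (12550) at chr8:106603350-106670247. These positions were read from the annotation only, since the submitters' notes name the build mm9. The RefSeq promoter table on GRCm38.p6, with 250 bases before and 50 after an annotated start, matched Krt8, Krt18, Cldn6 and Epcam. For Cldn6 this start lies inside the span given above, not at its first base. Their windows are shown because genes of epithelial adhesion are known targets of Snail and Zeb repressors, which bind the E-box CACCTG. Capitals mark CACCTG and TATAAA on either strand (CAGGTG and TTTATA on the other), and the windows are chr15:102004293-102004592 (minus strand), chr15:102027966-102028265 (plus), chr17:23679115-23679414 (plus) and chr17:87635729-87636028 (plus).
Krt8: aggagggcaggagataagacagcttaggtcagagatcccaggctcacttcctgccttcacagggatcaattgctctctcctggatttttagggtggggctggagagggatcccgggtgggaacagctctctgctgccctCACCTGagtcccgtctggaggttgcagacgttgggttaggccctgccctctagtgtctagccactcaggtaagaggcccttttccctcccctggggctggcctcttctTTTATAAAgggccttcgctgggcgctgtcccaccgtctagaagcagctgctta
Krt18: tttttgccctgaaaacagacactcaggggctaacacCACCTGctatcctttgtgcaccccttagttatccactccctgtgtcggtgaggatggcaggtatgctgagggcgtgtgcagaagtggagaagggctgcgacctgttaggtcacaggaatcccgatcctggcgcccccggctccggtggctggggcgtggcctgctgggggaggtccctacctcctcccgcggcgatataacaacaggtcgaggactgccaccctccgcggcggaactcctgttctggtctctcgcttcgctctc
Cldn6: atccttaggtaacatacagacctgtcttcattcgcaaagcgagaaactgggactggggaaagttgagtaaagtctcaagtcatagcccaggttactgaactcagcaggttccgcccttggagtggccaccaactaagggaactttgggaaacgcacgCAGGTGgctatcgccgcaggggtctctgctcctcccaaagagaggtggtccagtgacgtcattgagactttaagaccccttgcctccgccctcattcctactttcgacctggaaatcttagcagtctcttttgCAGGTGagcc
Epcam: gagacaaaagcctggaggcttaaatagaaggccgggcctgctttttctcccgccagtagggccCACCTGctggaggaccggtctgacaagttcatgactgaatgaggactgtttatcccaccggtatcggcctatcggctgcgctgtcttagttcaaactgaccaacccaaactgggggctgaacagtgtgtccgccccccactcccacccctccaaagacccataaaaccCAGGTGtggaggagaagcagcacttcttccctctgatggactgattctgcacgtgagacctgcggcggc
CACCTG was found in all 4 windows, in 6 places, and in 20.3% of 32544 promoter windows of the same length. TATAAA was found in the Krt8 window alone of the 4, where its copies on both strands overlap at the annotated start, and in 13.6% of all windows. A further search, for the GC box GGGCGG on either strand, matched Cldn6 and Epcam, against 35.9% of all windows. These matches describe letters, not binding, and no value in the table measures a promoter.

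**Figure D1:**
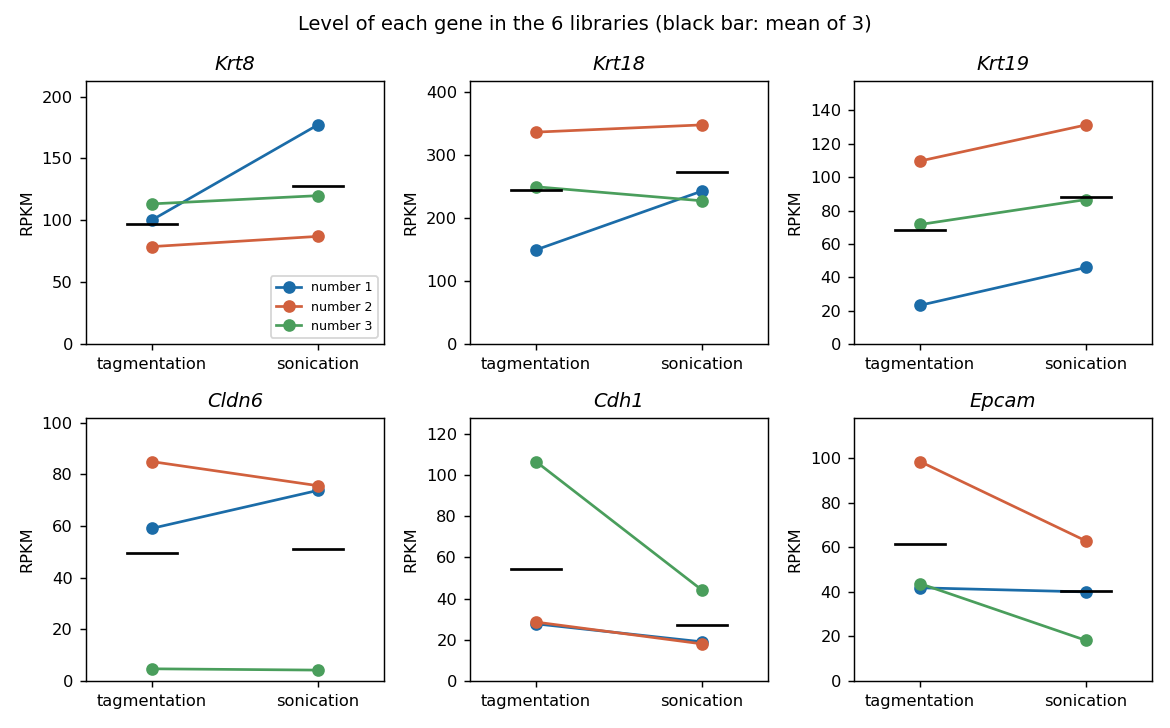
RPKM of each gene in the 6 libraries (vertical axes from 0, 1 panel per gene), with tagmentation left and sonication right. Points are libraries, lines join libraries of the same number and black bars are means of 3. Cldn6 stands low in both libraries of number 3, and Cdh1 stands high in both.

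Krt18 was the most abundant of the 6 transcripts per length, at 259 ± 73.6 RPKM over all libraries (SD, n = 6), rank 226 in the table by mean level. It was followed by Krt8 at 113 ± 35.1 RPKM, Krt19 at 78.1 ± 39.9, Epcam at 50.8 ± 27.3, Cldn6 at 50.4 ± 36.5 and Cdh1 at 40.7 ± 33.6 RPKM, the last at rank 1490. Krt18 was above Krt8 in 6 of 6 libraries. The other neighbours in this order changed places: Krt8 was above Krt19 in 4 of 6 libraries, Krt19 above Epcam in 5, Epcam above Cldn6 in 3 and Cldn6 above Cdh1 in 4. Each pair of neighbours overlapped in its range over libraries. All 6 genes gave whole reads in every library when their values were multiplied by 1 gene length, within 0.01 reads plus rounding. The members had 119 to 16319 reads in a library, the fewest in Cldn6 at number 3. Intervals from these reads cover counting alone, because reads copied by PCR were not traced back to molecules.

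Krt8, the type II keratin, had 100.3, 78.8 and 113 RPKM in tagmentation libraries 1 to 3 and 177, 87.1 and 120.0 RPKM in sonication libraries 1 to 3. The libraries of both methods overlapped, and the sonication library of number 1 stood above the other 5. Of the 36-base stretches of the annotated Krt8 transcripts, 33.9% also stand in transcripts of other genes, chiefly the processed pseudogene Krt8-ps and the non-coding Gm36026. The sources used here do not say how the authors placed reads with several matches, so the level of Krt8 is uncertain to that extent.

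Krt18, its type I partner, had 149.5, 336 and 249 RPKM in tagmentation libraries 1 to 3 and 243, 347 and 227 RPKM in sonication libraries 1 to 3. Number 2 was highest with both methods and the tagmentation library of number 1 was lowest. For Krt18, 6.42% of the stretches were shared, with the processed pseudogenes Gm5200 and Gm17847. Krt19, the type I keratin that lacks a tail domain, had 23.3, 109.7 and 71.7 RPKM in tagmentation libraries 1 to 3 and 45.9, 131 and 86.6 RPKM in sonication libraries 1 to 3. Its order, number 2 above number 3 above number 1, was the same with both methods, and no stretch of it was shared.

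Cldn6 had 59.1, 84.9 and 4.69 RPKM in tagmentation libraries 1 to 3 and 73.8, 75.6 and 4.19 RPKM in sonication libraries 1 to 3. Both libraries of number 3 stood apart from the other 4, with a 20.3-fold span between the highest and the lowest library. The low values rested on 245 reads after tagmentation (exact Poisson 95% interval 4.12 to 5.31 RPKM) and 119 reads after sonication (3.47 to 5.01 RPKM).

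Cdh1 had 27.7, 28.6 and 107 RPKM in tagmentation libraries 1 to 3 and 19.0, 18.0 and 44.2 RPKM in sonication libraries 1 to 3. It was highest in number 3 with both methods, the number in which Cldn6 was lowest. Epcam had 41.8, 98.5 and 43.7 RPKM in tagmentation libraries 1 to 3 and 40.0, 62.8 and 18.2 RPKM in sonication libraries 1 to 3. Number 2 was highest with both methods, and the sonication library of number 3 was lowest.

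The question the study asked, how tagmentation compares with sonication, was tested for every gene with limma on log2(RPKM + 1). The test was run over 6327 genes that had at least 1 RPKM in at least 3 of the 6 libraries, and all 6 members passed this filter. None of the 6 was called in this test, nor was any other gene (0% of those tested, with 18 genes or 0.284% at an unadjusted p under 0.05). On this scale, tagmentation minus sonication was -0.35 for Krt8 (SE 0.46), -0.20 for Krt18 (SE 0.42) and -0.49 for Krt19 (SE 0.68). It was 0.80 for Cdh1 (SE 0.76), 0.64 for Epcam (SE 0.67) and -0.0059 for Cldn6 (SE 1.29). Benjamini-Hochberg adjusted p-values were 1.00 for all 6. The 95% intervals were wide, with -1.37 to 0.67 for Krt8, -0.89 to 2.50 for Cdh1 and -2.87 to 2.86 for Cldn6 and included 0 for all 6 genes. Leaving out 1 library in this fit leaves its partner of the same number unmatched, so that the difference between numbers enters the difference between methods. The value then was -0.59 to -0.084 for Krt8 (-0.084 without sonication library 1), 0.18 to 1.21 for Cdh1 (0.18 without tagmentation library 3) and 0.17 to 1.04 for Epcam (0.17 without sonication library 3). The direction turned without tagmentation library 1 for Krt18 (0.11) and Krt19 (0.14). For Cldn6 it turned without tagmentation library 3 (1.21) or sonication library 1 (0.63) or 2 (0.65). The libraries of both methods overlapped for each of the 6 genes, while 2.4% of tested genes had no overlap.

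With the replicate number as a block, limma called 208 genes, 3.29% of those tested (1.58% higher and 1.71% lower after tagmentation), and none of the 6. At an unadjusted p under 0.05 it gave 16.8% of tested genes. Cdh1 came nearest (0.80, SE 0.30, unadjusted p 0.00698, adjusted p 0.109), followed by Epcam (0.64, SE 0.30, unadjusted p 0.0322, adjusted p 0.245). Both were higher after tagmentation in 3 of 3 pairs, as were 19.6% of tested genes. Krt19 (-0.49, SE 0.30, adjusted p 0.417) and Krt8 (-0.35, SE 0.30, adjusted p 0.621) were lower in 3 of 3 pairs, as were 14.2% of tested genes. Krt18 (-0.20, adjusted p 0.804) was lower in numbers 1 and 2 only, and Cldn6 (adjusted p 0.994) in number 1 only. In this fit limma borrowed nearly all of the spread from other genes of similar level, and its SEs of about 0.30 carry little of each gene's own pairs. Without number 1 the blocked fit called 16.6% of tested genes, among them Cdh1 (0.95, adjusted p 0.0188) and Epcam (0.93, adjusted p 0.0184) as higher. In 2 further blocked fits, chosen after the data were seen, the scaling was changed. Quantile normalization called 7.52% of tested genes, with Cdh1 higher (0.65, adjusted p 0.0384) and Krt19 lower (-0.70, adjusted p 0.0372), while median-ratio scaling called 0 genes (adjusted p 0.12 for Cdh1 and 0.165 for Krt19), with 1218 at an unadjusted p under 0.05.

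**Figure D2:**
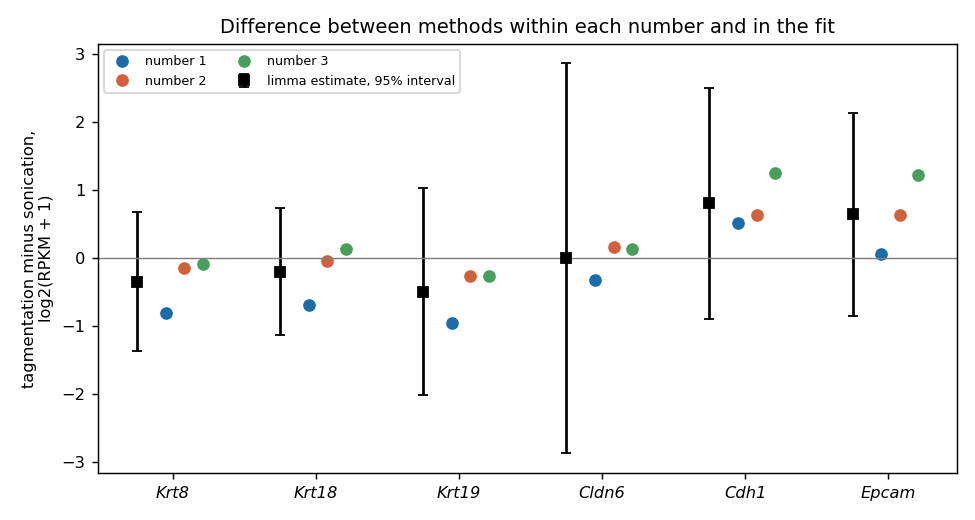
Tagmentation minus sonication in log2(RPKM + 1) for each gene. Black squares are the limma estimates without the block, with 95% intervals, and coloured points are the 3 pairs of libraries. The 3 keratins lie lowest in number 1 (-0.95 to -0.69), and Cdh1 and Epcam lie above 0 in each pair.

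The differences within pairs were not alike in the 3 numbers. In number 1 the keratins had their largest deficit after tagmentation, with ratios of tagmentation to sonication of 0.566 for Krt8, 0.616 for Krt18 and 0.507 for Krt19. In number 2 these ratios were 0.905, 0.967 and 0.835, and in number 3 they were 0.945, 1.10 and 0.828, in the same order of genes. Cdh1 had ratios of 1.46, 1.59 and 2.41 in numbers 1 to 3, and Epcam had 1.05, 1.57 and 2.40. There is 1 library of each method in a number, so the difference between numbers in these ratios has no replicate check.

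The GC content of the transcripts moved with these values. In GENCODE's longest coding transcript it was 57.6% for Krt19, 57.1% for Krt8, 56.4% for Krt18, 54.4% for Cldn6, 52.7% for Epcam and 50.7% for Cdh1. The order of the 6 genes by GC content, low to high, was thus the order of their method differences, high to low. Among the 6104 tested genes matched to a transcript (96.5%), the median difference was 0.13, 0.23, 0.11, -0.043 and -0.20 in 5 bins of rising GC content and equal size. In number 1 alone the bin with the highest GC content had a median of -0.57 and the bin below it -0.38, where the keratins had -0.81 (Krt8), -0.69 (Krt18) and -0.95 (Krt19). The bins of lowest and highest GC content differed most in number 1, with medians of 0.38 and -0.57. They were at 0.088 and -0.088 in number 2 and at -0.0063 and 0.025 in number 3. From bin 2 to bin 5 the medians fell at each step in these numbers too. They were 0.30, 0.18, 0.049 and -0.088 in number 2 and 0.44, 0.36, 0.21 and 0.025 in number 3. The 6 genes lie in bins 3 to 5. Set against the median of its own bin, the difference over the 3 pairs was -0.15 for Krt8, -0.16 for Krt18 and -0.29 for Krt19, and 0.69 for Cdh1 and 0.53 for Epcam. The part of GC content in the values of single genes was not tested.

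**Figure D3:**
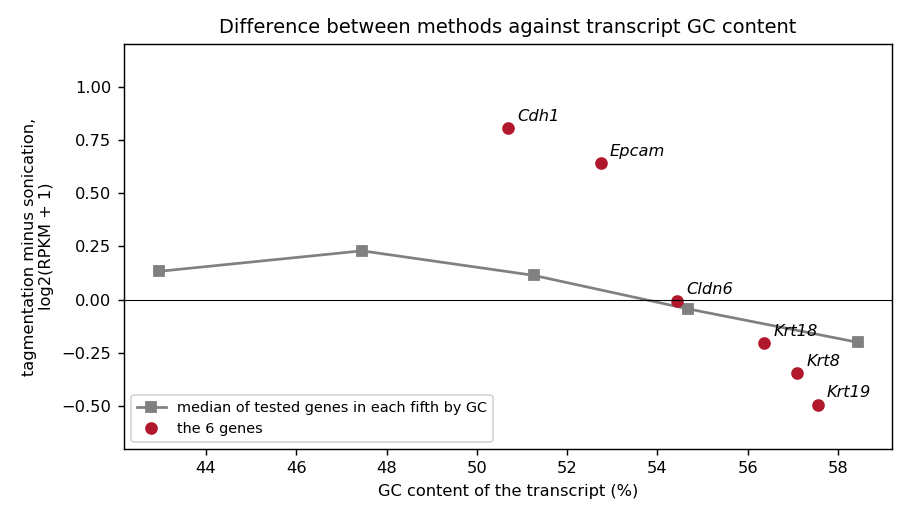
Tagmentation minus sonication in log2(RPKM + 1), mean of 3 pairs, against the GC content of the transcript in percent. Grey squares are medians of tested genes in 5 bins by GC content and red points are the 6 genes. The keratins lie below the grey line on the right, and Cdh1 (0.80) and Epcam (0.64) lie above it.

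In limma's F test with method as a term, 4 of the 6 genes, Cldn6, Krt19, Cdh1 and Epcam, differed between replicate numbers, as did 88.1% of all tested genes. Cldn6 had the widest range between number means, 3.90 in log2(RPKM + 1) (adjusted p 5.43e-24), with number 2 highest and number 3 lowest. This F test has the terms of the blocked fit, and limma again borrowed nearly all of the spread from other genes of similar level. Without the filter on low values the adjusted p was 0.00126 for Cldn6, 0.0107 for Krt19, 0.0118 for Cdh1 and 0.0463 for Epcam. That fit called 8306 of 12279 genes. After median-ratio scaling the adjusted p was 3.9e-05 for Cldn6, 0.000332 for Krt19, 0.000253 for Cdh1 and 0.0148 for Epcam. The values below are from the main F test. The range was 1.84 for Krt19 (adjusted p 5.87e-06, number 2 highest and number 1 lowest) and 1.56 for Cdh1 (adjusted p 1.43e-05, number 3 highest). It was 1.44 for Epcam (adjusted p 5.55e-04, number 2 highest and number 3 lowest). Krt18 (0.84, adjusted p 0.0809) and Krt8 (0.68, adjusted p 0.176) were not called. Both were called after median-ratio scaling (adjusted p 0.00948 for Krt18 and 0.00694 for Krt8), which also made number 3 the highest for Krt8, and after quantile normalization (0.00581 and 0.00207). Without the tagmentation library of number 2, the call was lost for Krt19 (range 1.97, adjusted p 0.0951), Cdh1 (range 1.88, adjusted p 0.0503) and Epcam (range 1.12, adjusted p 0.276), and without the sonication library of number 2 for Epcam (range 1.76, adjusted p 0.274). Krt8 was called without the tagmentation library of number 1 (0.00557), and Krt18 without the tagmentation (0.0332) or the sonication library (0.00222) of number 1.

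The ranges were set beside those of other genes of similar level. Of 825 tested genes with a mean within 2-fold of Krt8, 16.2% had a narrower range between numbers, and their median range was 1.41. Of 1558 genes with a mean within 2-fold of Cldn6, 82.3% had a narrower range, at a median of 1.94. For Krt18, Krt19, Cdh1 and Epcam these shares were 40.5%, 57.8%, 33.6% and 34.6%. Over all tested genes the median range was 2.38, a value that includes many genes of low level.

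**Figure D4:**
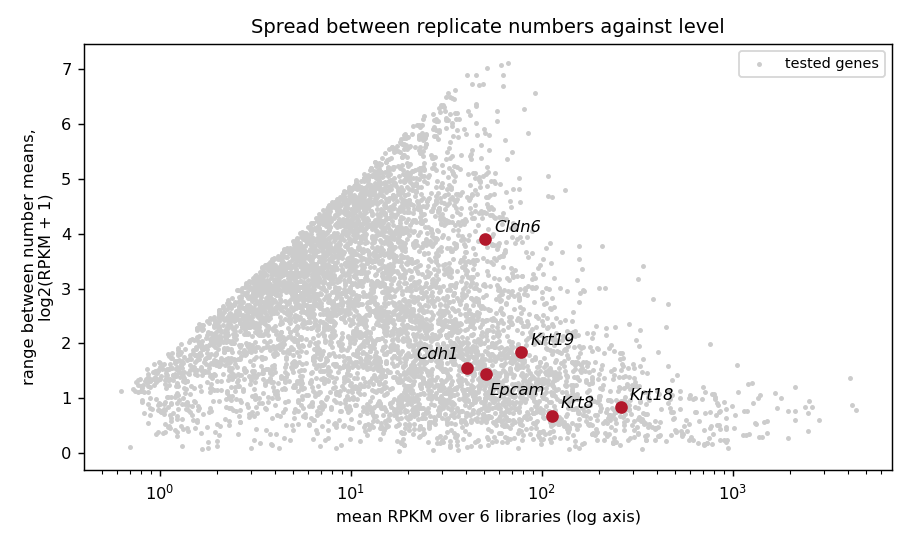
Range between the means of numbers 1 to 3 in log2(RPKM + 1) against the mean RPKM of each tested gene over 6 libraries (log axis). Grey points are tested genes and red points are the 6 genes. Krt8 (0.68) and Krt18 (0.84) had the narrowest ranges of the 6 and Cldn6 (3.90) the widest.

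Ratios between partner keratins were close within a number and far apart between numbers. The ratio of Krt8 to Krt18, from RPKM and thus per length, was 0.671, 0.235 and 0.454 in tagmentation libraries 1 to 3 and 0.730, 0.251 and 0.528 in sonication libraries 1 to 3. Libraries of the same number were within 0.861 to 0.936 of each other (tagmentation over sonication), while the highest and lowest library differed 3.11-fold. The sum of both type I keratins over Krt8 was 1.72, 5.65 and 2.83 in tagmentation libraries 1 to 3 and 1.63, 5.50 and 2.62 in sonication libraries 1 to 3. By these values type I keratin transcripts were above Krt8 in 6 of 6 libraries, by a factor that differed between numbers. The factor is uncertain, since 33.9% of Krt8 stretches are shared with other genes and the handling of such reads is not known. Krt19 over Krt18 was 0.156, 0.326 and 0.287 after tagmentation and 0.189, 0.378 and 0.381 after sonication, lower after tagmentation in 3 of 3 pairs.

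**Figure D5:**
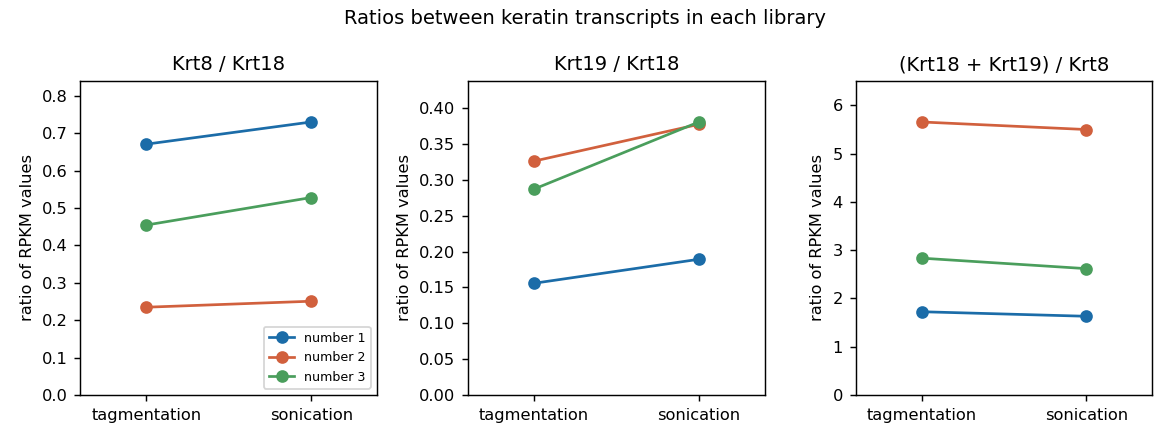
Ratios of RPKM values between keratins in each library (vertical axes from 0), tagmentation left and sonication right, with lines joining libraries of the same number. Krt8 over Krt18 lies between 0.235 and 0.730, in the same order of numbers with both methods.

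Epcam over Cdh1 was 1.51, 3.44 and 0.410 in tagmentation libraries 1 to 3 and 2.10, 3.49 and 0.411 in sonication libraries 1 to 3. In numbers 2 and 3 the methods gave nearly the same ratio although each gene alone was higher after tagmentation. Among the 6 genes the profiles over libraries lay closest for Krt18 and Krt19, with a root mean square difference of 0.48 in centred log2(RPKM + 1), and farthest apart for Cldn6 and Cdh1, at 2.54.

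Genes whose profile was most like that of a member over the 6 libraries were named by the smallest such difference among genes with a mean of at least 10 RPKM. They were Fbl (0.056), Eif3g (0.067) and Psap (0.13) for Krt8, and Usp5 (0.059), Rpl27 (0.065) and Bag6 (0.067) for Krt18. For Krt19 they were Pold2 (0.11), Csnk1g2 (0.12) and 2410018M08Rik (0.13), and for Cldn6 Dhrs7b (0.10) and Prpf3 (0.14). For Epcam they were Tomm22 (0.12), Bub1b (0.13) and Polr1d (0.13), and for Cdh1 Dhodh (0.24), Dync1li1 (0.24) and Leo1 (0.24). With 3 pairs of libraries sharing their numbers, such likeness describes these libraries only.

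Few other keratins were found. Of 21 other keratins listed, 13 were in the table and 9 of these were below 1 RPKM in all 6 libraries, among them Krt7, Krt5 and Krt10. Krt17, a type I keratin of stratified and stressed epithelia, had 10.7, 2.47 and 72.6 RPKM in tagmentation libraries 1 to 3 and 21.4, 2.92 and 97.0 RPKM in sonication libraries 1 to 3. Krt42 and Krt14 averaged 9.89 and 2.88 RPKM over all libraries. None of the 3 tested keratins of this list was called for the method with or without the block, and 2 differed between numbers. Their median difference was -0.46. For this and the lists below, the shares over all tested genes are 3.29% called with the block and 88.1% called between numbers.

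Of 14 tested tight junction genes, 1 was called for the method with the block and none without it, and 14 differed between numbers. The 1 was Prkci, the atypical protein kinase C of the polarity complex, with 7.88, 33.8 and 43.1 RPKM in tagmentation libraries 1 to 3 and 5.44, 16.5 and 13.9 RPKM in sonication libraries 1 to 3 (1.01, SE 0.29, adjusted p 0.0309 with the block). The median difference of these 14 genes was 0.068, against 0.028 over all tested genes. Cldn7, a claudin that binds Epcam, had 57.6, 38.5 and 72.2 RPKM after tagmentation and 101, 39.9 and 77.4 RPKM after sonication. Cldn4 had 1.18, 95.5 and 31.6 RPKM after tagmentation and 1.48, 101 and 22.6 RPKM after sonication, so that the claudins did not share an order of numbers. F11r, an adhesion molecule of tight junctions, averaged 33.4 RPKM. Ocln (occludin) and Marveld3, singled out after their values were seen, were found in complementary numbers. Ocln had 26.6 RPKM in the tagmentation library and 18.9 RPKM in the sonication library of number 1 and was listed at 0 in the other 4, while Marveld3 was listed at 0 in number 1 with both methods and had 16.5 to 41.5 RPKM in the other 4.

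Of 8 tested adherens junction genes none was called for the method with or without the block, and 7 differed between numbers. Ctnnb1 (beta-catenin), which binds the tail of Cdh1, had 287, 234 and 144 RPKM in tagmentation libraries 1 to 3 and 221, 152 and 67.3 RPKM in sonication libraries 1 to 3. Ctnna1 (alpha-catenin), which links it to actin, had 173, 18.3 and 65.4 RPKM after tagmentation and 144, 19.8 and 39.3 RPKM after sonication. Both were highest in number 1, where Cdh1 was low. Pvrl2, a nectin, had 23.9, 48.0 and 123 RPKM after tagmentation and 41.4, 54.3 and 128 RPKM after sonication, highest in number 3 as Cdh1 was. The median difference of the 8 genes was -0.11.

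Of 5 tested desmosome genes and 11 tested epithelial regulators none was called for the method, with or without the block, and all 16 differed between numbers. The most abundant desmosome genes were Perp, Pkp4 and Pkp2, at means of 19.1, 14.3 and 9.66 RPKM. Among regulators, Spint2, an inhibitor of serine proteases that act on Epcam, had 57.0, 159 and 109 RPKM in tagmentation libraries 1 to 3 and 68.3, 149 and 88.6 RPKM in sonication libraries 1 to 3. It was highest in number 2, as Epcam, Krt18 and Krt19 were. The transcription factor Klf5 had 45.3, 21.1 and 1.94 RPKM after tagmentation and 75.2, 26.0 and 1.60 RPKM after sonication, and Ap1m2, an adaptor of epithelial sorting, averaged 26.9 RPKM. Median differences were 0.16 for desmosome genes and 0.040 for regulators.

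Markers of other cell types that express these keratins, cadherins or their repressors were examined in the same libraries. Trophoblast markers summed to 47.4, 15.1 and 2.29 RPKM in tagmentation libraries 1 to 3 and 43.1, 12.1 and 1.93 RPKM in sonication libraries 1 to 3, over 6 genes in the table of 11 listed. In number 1 the sum was mostly Gata3 (20.6 RPKM with both methods) and Ascl2 (18.4 and 17.1 RPKM), while Cdx2, a defining trophoblast factor, was at 0.0616 RPKM or less in every library. Eomes, another factor of this list, had 5.29 RPKM in the tagmentation library and 2.78 RPKM in the sonication library of number 2. Tcfap2c, next by mean level, averaged 3.95 RPKM over all libraries. Extraembryonic endoderm markers summed to 64.4 to 186 RPKM after tagmentation and 58.6 to 207 RPKM after sonication, over 9 genes in the table of 20 listed. The sum was highest in number 1 with both methods, and Cited1, Sparc and Lamc1 had the highest means. Sparc (74.1 and 73.4 RPKM), Lamc1 (38.3 and 43.4 RPKM) and Lamb1 (26.9 and 25.6 RPKM) were highest in number 1 (tagmentation, then sonication). Lama1, a laminin of the same list, was listed at 0 in number 1 with both methods and had 10.3 and 9.56 RPKM in number 2. Cited1 was highest in number 3, with 53.4 and 59.5 RPKM against 35.5 and 56.8 RPKM in number 1. Mesenchymal and fibroblast markers summed to 294 to 346 RPKM after tagmentation and 235 to 318 RPKM after sonication, mostly from Vim, Fn1 and Acta2. The fibroblast collagens Col1a1, Col1a2 and Col3a1 were below 1 RPKM in every library, and the repressor Zeb2 was at 0.24 RPKM or less. Others of this list were found mainly in single numbers (tagmentation, then sonication). Snai3 had 11.4 and 13.1 RPKM in number 2, and Thy1 had 9.55 and 12.1 RPKM in number 1. Thy1 was also found at a lower level in number 2, with 1.95 RPKM after tagmentation and 2.15 RPKM after sonication. In number 3 Twist1 had 29.3 and 7.91 RPKM and Twist2 had 2.40 and 2.14 RPKM. None of the 11 tested genes in these 3 lists was called for the method, with or without the block, and the median method differences were 0.27 for 2 trophoblast, -0.33 for 5 endoderm and 0.083 for 4 mesenchymal genes. In number 1, where the trophoblast and endoderm sums were highest, Krt18 and Krt19 had their lowest mean over both methods and Krt8 its highest. For Krt8 this held after sonication only, since after tagmentation number 3 (113 RPKM) was above number 1 (100.3 RPKM). For Krt18 it held after tagmentation only, since after sonication number 3 (227 RPKM) was below number 1 (243 RPKM). Neither gene was called between numbers in the main F test. The part of other cells in the members' levels was not tested.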

How the data were processed

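The 6 RNA-seq libraries, 3 per method, were deposited as RPKM that the authors had computed. Per the file headers, 1 column holds 1 library, and its number of alignments is listed. The submitters' processing notes name the build mm9, CASAVA 1.7.0 and Partek without roles; the sources used here name no aligner, annotation or handling of multiply matching reads. Libraries were grouped by their titles.

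Values were tested as log2(RPKM + 1), a scale that understates changes of low genes, in genes at 1 RPKM or more in at least 3 libraries (6327 of 12331). Genes were fitted with lmFit and eBayes with a trend (limma 3.58.1, R 4.3.3), two-sided, with Benjamini-Hochberg adjustment over all tested genes and a threshold of 0.05. Method was the only term; the replicate number as a block was an alternative. Differences between numbers used the F test with method as a term. The labels do not say that equal numbers share a cDNA. Across methods, values of log2(RPKM + 1) had correlations of 0.977, 0.977 and 0.958 in same-number libraries, against 0.482 to 0.705 otherwise. The numbers were therefore taken as pairs. Deviations from each method's mean had correlations of 0.952, 0.969 and 0.934 in same-number libraries, against -0.175 or less across methods otherwise. The 3 deviations of a method sum to 0, which by itself pushes the correlations of unequal numbers below 0. Scripts were tested on simulated data.

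Reads were recovered as RPKM times alignments times a gene length found from the values. GC content came from GENCODE M21 transcripts (GRCm38). The other 9 gene lists were described by counts and medians. From each list the 3 genes with the highest mean were named, and those called for the method with or without the block. Other genes of these lists (Pou5f1, Nanog, Ocln, Marveld3, Krt7, Krt5, Krt10, Cdx2, Eomes, Lamb1, Lama1, Zeb2, Snai3, Thy1, Twist1, Twist2 and the collagens) were named outside this rule, after their values were seen. For each member the 3 genes with the most similar profile were named, of which 1 is not reported here. Members, lists and tests were chosen with earlier results of these data known. Alternatives were other pseudocounts, filters and scalings, and leaving out libraries.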

Additional observations from a re-analysis of the deposited data

How the results depend on the processing

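No method difference of the 6 genes was called in any fit without the block. Leaving out each library in turn gave -0.59 to -0.084 for Krt8, -0.47 to 0.11 for Krt18, -0.96 to 0.14 for Krt19, -1.29 to 1.21 for Cldn6, 0.18 to 1.21 for Cdh1 and 0.17 to 1.04 for Epcam, and called 0 genes in all. A pseudocount of 0.1 gave 0.0021 for Cldn6. The replicate block raised the count of called genes to 208. With the block and without replicate 1, 2 or 3 it was 1051, 10 and 19, and with quantile normalization, chosen after the data were seen, 476. With median-ratio scaling, also chosen afterwards, it was 0, with 1218 genes at an unadjusted p under 0.05. In the blocked fit without replicate 1, Krt18 (0.043) and Cldn6 (0.15) turned direction, and Cdh1 (0.95) and Epcam (0.93) were called higher. With the block and quantile normalization Krt19 (-0.70) and Cdh1 (0.65) were called. The causes were not tested.

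The number called between replicate numbers was 5577, with 3411 among the 4023 genes at a mean of 10 RPKM or more, where fewer genes were tested, and 4342 to 5867 without each library. Without each library the range between numbers was 0.49 to 1.09 for Krt8, 0.52 to 1.19 for Krt18, 1.37 to 2.32 for Krt19, 3.82 to 3.98 for Cldn6, 0.93 to 2.18 for Cdh1 and 0.93 to 2.06 for Epcam. Cldn6 was called in all 13 alternatives. Median-ratio scaling gave 0.98 for Krt8 and 0.83 for Krt18, and quantile normalization 0.86 and 0.67, all called.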
